A study of Mus musculus with 12 samples.

Results

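The annexins are described here through 10 of the 45859 genes in the deposited tables, namely Anxa1 to Anxa9 and Anxa11, taken as the rows whose gene symbol equals a listed name. RNA came from mouse lens capsules with their attached lens cells (LCs) after surgical removal of the lens fibers, a model of cataract surgery, in mice 2 months old. The groups were WT (C57BL/6) LCs harvested at 0 h and at 24 h post cataract surgery (PCS) and LCs of β8ITG-cKO mice, with a conditional knockout of the β8 integrin gene on a Mixed (C57BL/6, 129S1/Sv) background, at the same times, with 3 libraries in each group and 12 in all. All 4 groups had surgery, and each library pooled the capsules of several lenses. In β8ITG-cKO mice MLR10-cre, which is active in LCs from the lens vesicle stage, removes a loxP-flanked exon of Itgb8. The WT mice were of another strain background, so genotype and background cannot be told apart.

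Annexins are cytosolic proteins that bind negatively charged phospholipids when calcium rises. They have a conserved core of repeats that holds the calcium sites and a short or long N-terminal tail that differs between members and carries their binding sites for S100 proteins and other partners. They gather at torn plasma membrane, link membrane to cortical actin, take part in vesicle traffic and, once outside the cell, act on plasminogen activation and on the resolution of inflammation. Epithelial cells and migrating wound cells are rich in several of them.

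Summed FPKM (fragments per kilobase scaled to the sequenced total, which allows levels of different genes to be compared) ran from 446531 to 740140 per library, and relative depths read from the steps between low values ran from 0.867 to 1.098. The lens markers Pax6 and Foxe3 were above 0 in every library, with Pax6 at 59.9 to 93.49 FPKM and Foxe3 at 25.46 to 172.17 FPKM. Itgb8 had 4.58 to 7.31 FPKM in β8ITG-cKO and 7.26 to 10.78 FPKM in WT at 0 h, and 9.28 to 11.83 FPKM in β8ITG-cKO and 8.38 to 9.58 FPKM in WT at 24 h. These gene-level values also count the exons that the deletion leaves, so they do not test the labels. Differences below are on the log2(FPKM + 1) scale from limma-trend with Benjamini-Hochberg adjustment over all genes tested and, where given, their standard error (SE), and a gene rose or fell only where its adjusted p was at most 0.05. Genes entered a test when they averaged 0.5 FPKM or more in the libraries compared. Counts at an unadjusted p have no share over all genes beside them, since none was computed. Values of 0 are given as listed, since they may also be failed estimates.

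Annexin mRNA was abundant in LCs, and Anxa1 and Anxa2 supplied most of it. Anxa1 had a higher mean than 99.8% of all genes in each group, and Anxa2 than 98.9% of them in WT at 0 h and 99.7% in WT at 24 h. The summed FPKM of the 10 genes was 579 ± 45.5 in WT at 0 h, 1013 ± 254 in WT at 24 h, 937 ± 75.7 in β8ITG-cKO at 0 h and 789 ± 109 in β8ITG-cKO at 24 h (SD, n = 3 each). At 0 h in WT the order of the means was Anxa1, Anxa2, Anxa5, Anxa6, Anxa4, Anxa7, Anxa11, Anxa3, Anxa9 and Anxa8. The library ranges of Anxa6 and Anxa4, of Anxa11 and Anxa3, and of Anxa9 and Anxa8 overlapped. At 24 h in WT, Anxa8 had moved up to the seventh place, with a range that overlapped that of Anxa7, and the ranges of Anxa1 and Anxa2 overlapped too.

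**Figure D1:**
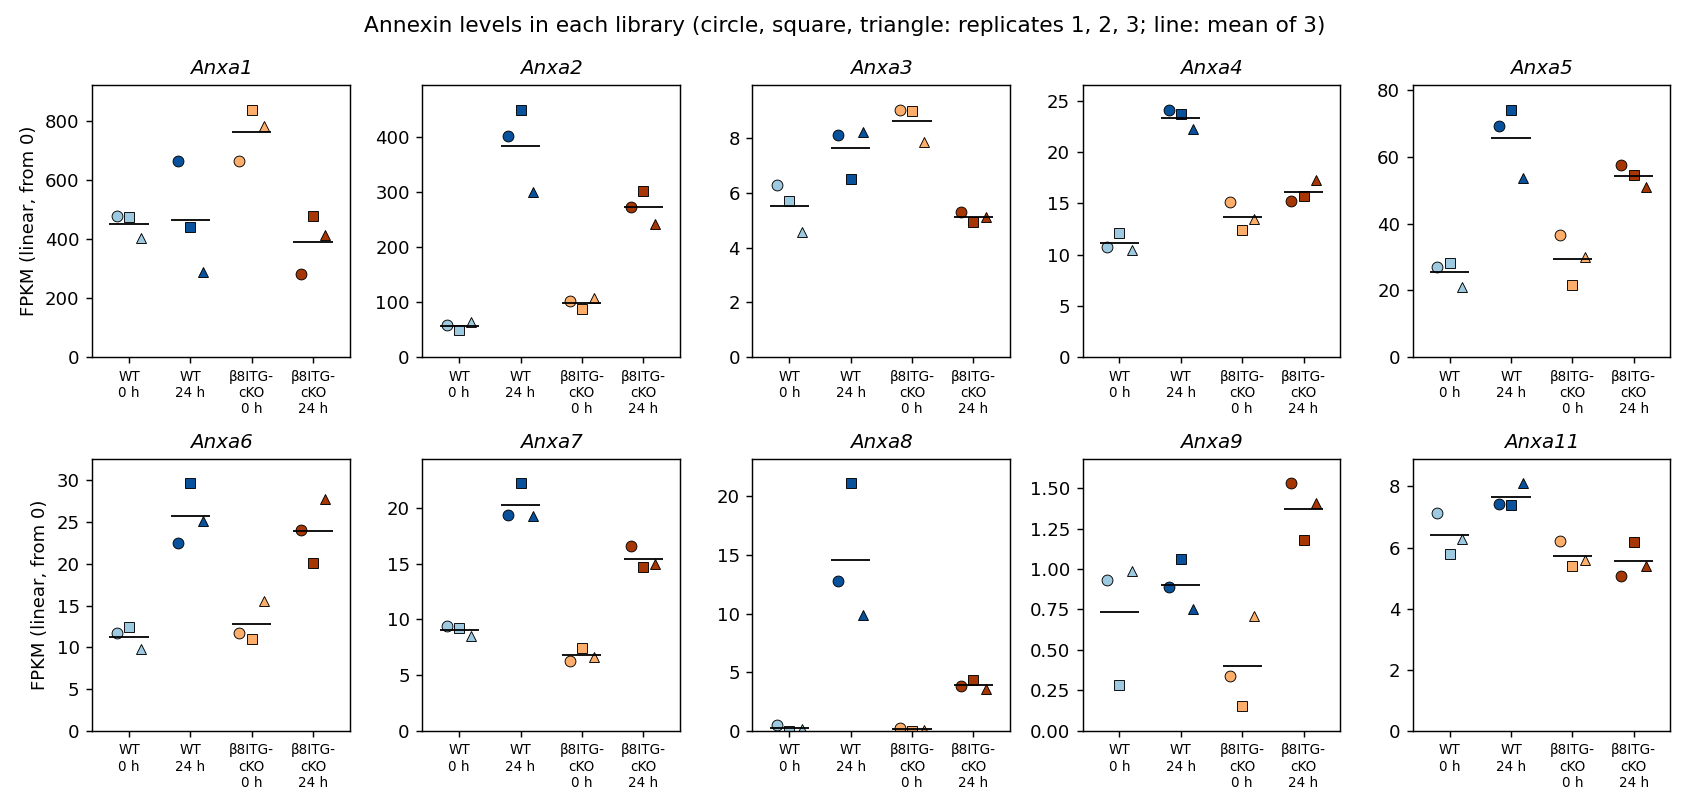
FPKM of each annexin gene (linear axes from 0, a different scale in each panel) in the 12 libraries of the 4 groups, with circles, squares and triangles for replicates 1, 2 and 3 and a line at the mean of 3. Anxa8 lay at 0.52 FPKM or less in all 6 libraries at 0 h and at 9.91 to 21.1 FPKM in WT at 24 h, while Anxa1 spread from 287.73 to 666.14 FPKM in WT at 24 h.

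The balance between Anxa1 and Anxa2 shifted after surgery in both genotypes. Anxa1 made up 78.1% ± 1.6 of the summed annexin FPKM in WT at 0 h and 81.1% ± 3.29 in β8ITG-cKO at 0 h, against 44.8% ± 8.15 and 49% ± 6.8 at 24 h (SD, n = 3 each). Anxa2 went from 9.87% ± 1.91 to 38.4% ± 5.06 in WT and from 10.6% ± 1.67 to 34.8% ± 4.66 in β8ITG-cKO (SD, n = 3 each). The ratio of Anxa1 to Anxa2 was 6.39 to 9.69 in the WT libraries at 0 h and 6.53 to 9.72 in the β8ITG-cKO libraries at 0 h. It was 0.963 to 1.66 and 1.03 to 1.71, respectively, at 24 h. The ratio separated the times in each genotype without overlap, and the ranges of both genotypes overlapped at each time. It is formed within a library and does not move with the scaling between libraries. The other 8 genes together held 12% ± 0.311 of the sum in WT at 0 h and 16.9% ± 3.37 at 24 h (SD, n = 3 each).

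**Figure D2:**
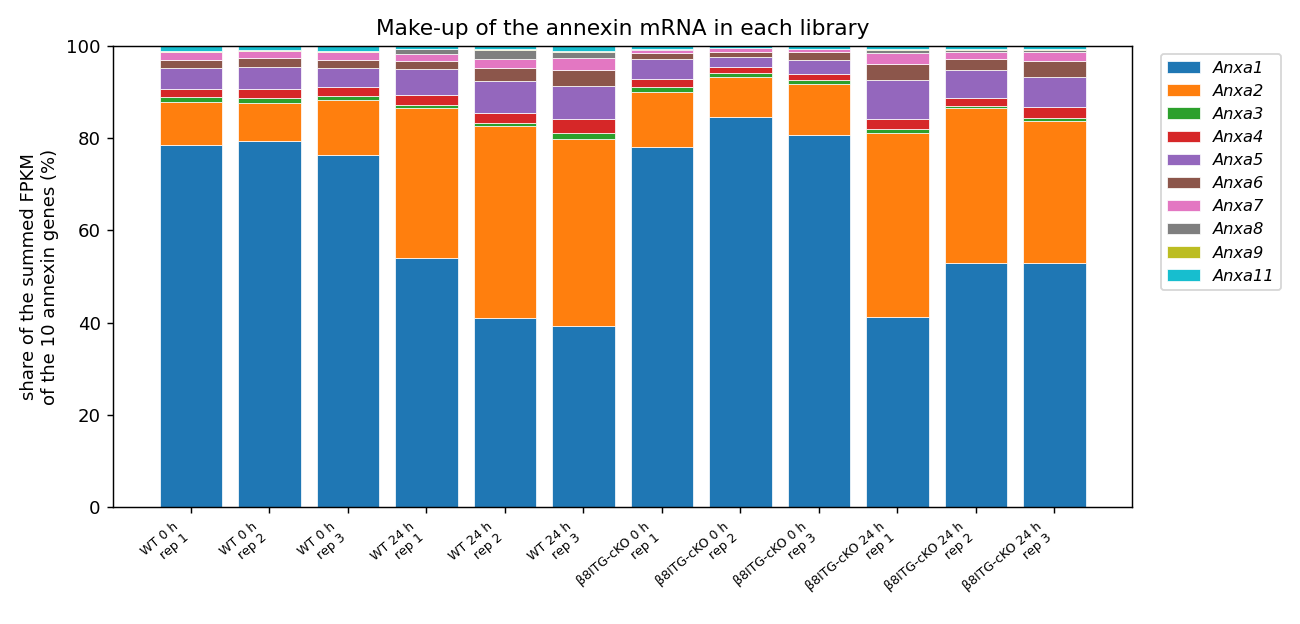
Share of each annexin gene (%) in the summed FPKM of the 10 genes, 1 bar per library. Anxa2 took 8.21% to 11.9% of the sum in WT at 0 h and 32.5% to 41.8% at 24 h, and Anxa1 stood at 76.4% to 79.5% in WT at 0 h and 39.2% to 54.1% at 24 h.

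Between 0 h and 24 h PCS, 6 of the 10 annexin genes rose in WT LCs and 0 fell, where 20.9% of 15146 genes tested rose and 8.81% fell. At an unadjusted p of at most 0.05, the genes that were lower also numbered 0. The risers were Anxa2, Anxa4, Anxa5, Anxa6, Anxa7 and Anxa8, and each also met the criteria of the study (more than 2-fold apart, means more than 2 FPKM apart, and the larger mean no less than 2 FPKM), which 10.3% of all genes met as higher and 3.92% as lower. In 8 of the 10 the WT libraries at 24 h all lay above those at 0 h, which held for 31.3% of all genes, and in 0 they all lay below, which held for 15.6%. The median difference over the 10 genes was 1.05, against 0.16 over all genes. In β8ITG-cKO LCs, 6 of the 10 rose and 2 fell, where 35.4% of 15237 genes rose and 10.7% fell. The risers there were Anxa2, Anxa5, Anxa6, Anxa7, Anxa8 and Anxa9, and the genes that fell were Anxa1 and Anxa3. Of these, 3 risers (Anxa2, Anxa7 and Anxa8) and 0 that fell met the criteria of the study, against 11.3% and 3.77% of all genes. The libraries at 24 h all lay above those at 0 h for 7 of the 10 and below them for 2, against 42.9% and 14% of all genes. The median difference was 0.82, against 0.23 over all genes. Anxa8 in both genotypes and Anxa9 in β8ITG-cKO entered these tests only through their levels at 24 h, so their calls could only be rises. Without them the risers were Anxa2, Anxa4, Anxa5, Anxa6 and Anxa7 in WT and Anxa2, Anxa5, Anxa6 and Anxa7 in β8ITG-cKO. Rescaling every library to the same median moved the median over all genes to -0.05 in WT and -0.001 in β8ITG-cKO, and the calls over all genes to 2199 higher and 2447 lower in WT, from 3165 and 1335, and to 3217 higher and 3008 lower in β8ITG-cKO, from 5394 and 1636. Each of these annexin calls in both genotypes held after rescaling. Markers of other cells moved over time too. All 9 retinal genes rose in β8ITG-cKO and 0 rose in WT, where 1 fell, neutrophil genes rose in both (5 of 5 tested in WT and 4 of 4 in β8ITG-cKO), and 5 of 5 red blood cell genes rose in β8ITG-cKO. The neutrophil genes, and Alas2 of the red blood cell genes in β8ITG-cKO, entered these tests only through their levels at 24 h. Of the corneal epithelium genes, 2 of 2 tested fell in β8ITG-cKO, Aldh3a1 by 2.2 and Krt15 by 0.98, and 0 of 5 passed in limma-trend in WT, with 1 at an unadjusted p of at most 0.05. The summed level of that list went from 539 to 921 FPKM at 0 h to 141 to 192 FPKM at 24 h in β8ITG-cKO. Most of that sum was Aldh3a1 alone, with means of 733.9 FPKM at 0 h and 157.2 FPKM at 24 h. Krt12, Krt5 and Krt14 were too low in β8ITG-cKO for a test. Their means were 0.10, 0.28 and 0.23 FPKM at 0 h and 0.33, 0.34 and 0.53 FPKM at 24 h. The part of these cells in the annexin changes was not tested.

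**Figure D3:**
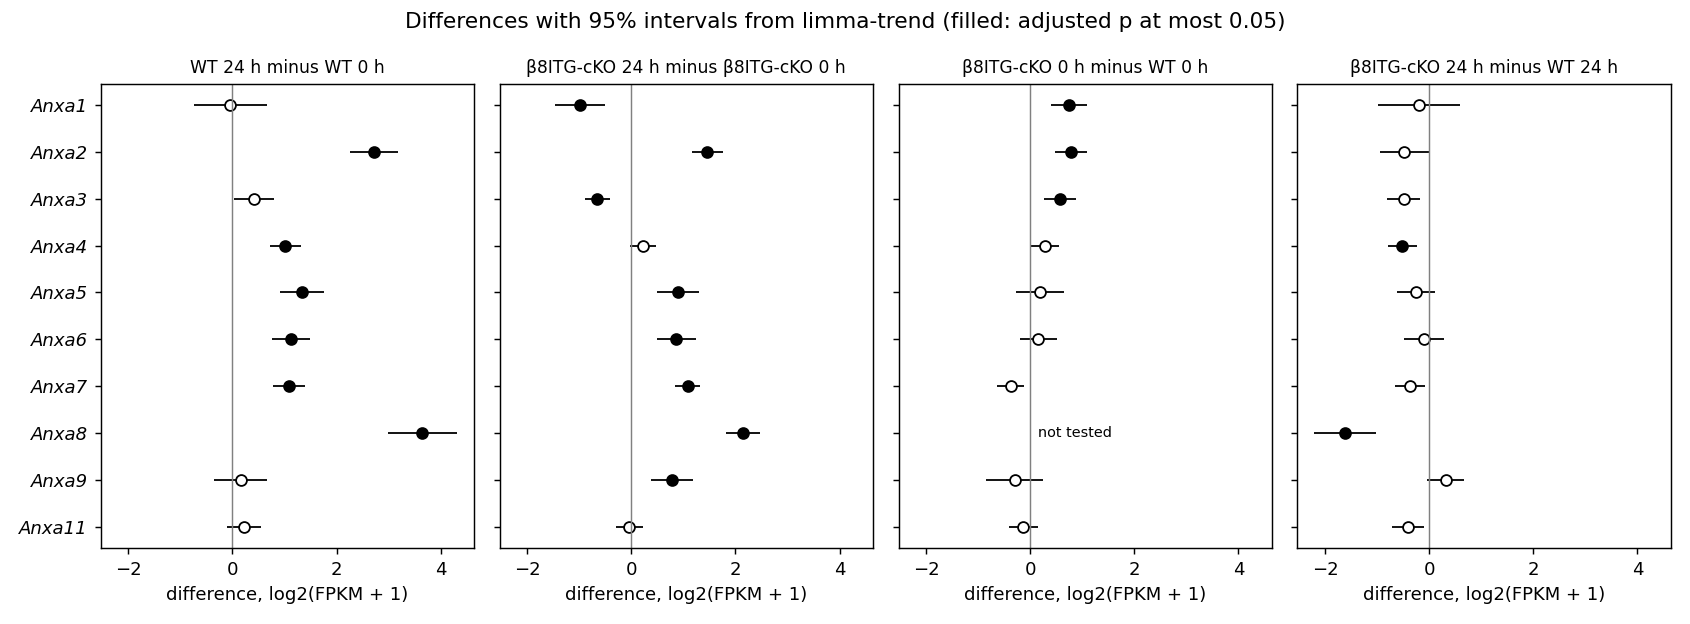
Differences on the log2(FPKM + 1) scale with 95% intervals from limma-trend for the 10 annexin genes in 4 comparisons, filled where the adjusted p was at most 0.05. In WT over time Anxa8 (3.65) and Anxa2 (2.72) lie farthest to the right, and between genotypes at 24 h 9 of the 10 points lie left of 0.

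Annexin A2 pairs with S100A10 in a complex at the inner face of the plasma membrane, and on the cell surface this complex gathers plasminogen and tissue plasminogen activator. Anxa2, on chromosome 9 from 69453683 to 69491792 (GRCm38, plus strand), had 57.68, 49.17 and 63 FPKM in WT at 0 h and 400.51, 449.2 and 298.8 FPKM at 24 h. In β8ITG-cKO it had 101.68, 86.33 and 106.64 FPKM at 0 h and 273.09, 301.85 and 241.2 FPKM at 24 h. All libraries at 24 h lay far above those at 0 h, and the β8ITG-cKO libraries at 0 h all lay above the WT libraries at 0 h. The rise in WT was 6.76-fold in the means, a difference of 2.72 (SE 0.20, limma-trend adjusted p = 0.000194). In β8ITG-cKO it was 2.77-fold, a difference of 1.46 (SE 0.13, limma-trend adjusted p = 0.00011). At 24 h the genotypes overlapped through WT replicate 3 and β8ITG-cKO replicate 2, and the difference of -0.48 (95% interval -0.94 to -0.01) had a limma-trend adjusted p of 0.237.

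Annexin A8 is found mainly in epithelia such as skin and the ocular surface and is linked to membrane and endosome traffic. Anxa8 had 0.52, 0 and 0.11 FPKM in WT at 0 h and 12.79, 21.1 and 9.91 FPKM at 24 h. The β8ITG-cKO libraries had 0.26, 0 and 0.06 FPKM at 0 h and 3.78, 4.36 and 3.53 FPKM at 24 h. All 6 libraries at 0 h were far below those at 24 h, and at 24 h the highest β8ITG-cKO library was under the lowest WT library. The difference over time was 3.65 in WT (SE 0.29, limma-trend adjusted p = 0.000267) and 2.15 in β8ITG-cKO (SE 0.14, limma-trend adjusted p = 3.59e-05). Anxa8 entered both tests over time only through its level at 24 h, and it was too low at 0 h for a test between the genotypes. At 24 h its mean was 3.75-fold lower in β8ITG-cKO, a difference of -1.61 (SE 0.25, limma-trend adjusted p = 0.0105), or an adjusted p of 0.0501 without β8ITG-cKO 24 h replicate 3. The study had placed Anxa8 in a list of genes chosen on these libraries for being lower in β8ITG-cKO, so this difference is not independent evidence. In the tables Anxa8 carries a locus on chromosome 14 from 34051126 to 34102754, while the gene itself spans 34085981 to 34100571 on the plus strand in GRCm38. The wider locus also holds Antxrl, A630023A22Rik and Gm49129, none of which shares an exonic base with Anxa8 there.

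The stretches of 250 bases before the start sites of Anxa2 and Anxa8, the genes with the largest rises, and of Anxa1, the most abundant gene, are printed here (RefSeq, GRCm38.p6, written on the strand of the gene), with capitals for matches to the AP-1 letters TGANTCA, the CRE letters TGACGTCA or the TEAD letters GGAATG on either strand. None of the 3 sets of letters contains another. They lie at chr9:69453433-69453682 (plus strand), chr14:34085729-34085978 (plus strand) and chr19:20390672-20390921 (minus strand).
Anxa2: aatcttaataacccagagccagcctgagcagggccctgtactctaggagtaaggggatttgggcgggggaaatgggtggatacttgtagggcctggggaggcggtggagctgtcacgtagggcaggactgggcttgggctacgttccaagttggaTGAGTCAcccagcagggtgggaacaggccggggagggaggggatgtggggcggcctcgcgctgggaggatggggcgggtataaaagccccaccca
Anxa8: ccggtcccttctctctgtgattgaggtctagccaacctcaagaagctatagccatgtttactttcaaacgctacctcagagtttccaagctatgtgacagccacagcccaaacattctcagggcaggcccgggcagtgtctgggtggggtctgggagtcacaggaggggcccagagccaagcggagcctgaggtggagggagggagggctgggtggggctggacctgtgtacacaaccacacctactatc
Anxa1: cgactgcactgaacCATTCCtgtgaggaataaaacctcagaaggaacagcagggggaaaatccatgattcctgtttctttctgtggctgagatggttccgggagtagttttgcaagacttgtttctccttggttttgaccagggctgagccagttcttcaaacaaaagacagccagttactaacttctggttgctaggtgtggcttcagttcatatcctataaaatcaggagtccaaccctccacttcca
Anxa2 held 1 AP-1 match, which begins 95 bases before the start, and Anxa1 held 1 TEAD match, which begins 236 bases before it. Of 32851 promoter stretches of this length, 6.75% held the AP-1 letters, 1.55% the CRE letters and 12.6% the TEAD letters. Among the 11 stretches of 8 annexin genes in the table, 1, 0 and 1 held them. These are matches of letters, not sites of binding, and a stretch with none says nothing on any factor.

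Annexin A1 restrains phospholipase A2 and, once released, acts through formyl peptide receptors to end neutrophil recruitment. Anxa1, on chromosome 19 from 20373434 to 20390671 (minus strand), had 479.44, 476.35 and 402.35 FPKM in WT at 0 h and 666.14, 440.07 and 287.73 FPKM at 24 h. The values in β8ITG-cKO were 663.77, 838.95 and 782.21 FPKM at 0 h and 281.61, 477.67 and 413.22 FPKM at 24 h. The 24 h libraries of WT straddled those at 0 h, whereas in β8ITG-cKO every library at 24 h lay below every library at 0 h. The fall in β8ITG-cKO was 1.95-fold in the means, a difference of -0.99 (SE 0.21, limma-trend adjusted p = 0.00634). In WT the difference was -0.04 (95% interval -0.74 to 0.66, limma-trend adjusted p = 0.931), an interval that holds changes of either sign. At 24 h the difference between the genotypes was -0.20 (95% interval -0.99 to 0.59, limma-trend adjusted p = 0.789).

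Annexin A5, which binds exposed phosphatidylserine and is used to stain dying cells, forms lattices on membrane and rose in both genotypes. Anxa5, on chromosome 3 from 36448923 to 36475887 (minus strand), had 27.04, 28.19 and 20.97 FPKM in WT at 0 h and 69.33, 74.13 and 53.54 FPKM at 24 h. In the knockout libraries it had 36.65, 21.63 and 29.97 FPKM at 0 h and 57.55, 54.45 and 51.08 FPKM at 24 h. The times did not overlap in either genotype, and the genotypes overlapped at each time. The differences were 1.33 in WT (SE 0.18, limma-trend adjusted p = 0.0022) and 0.89 in β8ITG-cKO (SE 0.18, limma-trend adjusted p = 0.00471).

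Annexin A6, the member with a doubled core, acts at endosomes and in plasma membrane repair. Anxa6, on chromosome 11 from 54978962 to 55033473 (minus strand), had 9.74 to 12.39 FPKM in WT at 0 h and 22.46 to 29.64 FPKM at 24 h. In β8ITG-cKO it had 11.03 to 15.59 FPKM at 0 h and 20.05 to 27.83 FPKM at 24 h. The libraries at 24 h lay above those at 0 h in both genotypes, with a 2.28-fold rise in the means in WT (limma-trend adjusted p = 0.00259) and a 1.88-fold rise in β8ITG-cKO (limma-trend adjusted p = 0.0037). Between the genotypes at 24 h the difference was -0.10 (95% interval -0.49 to 0.29).

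Annexin A7 (synexin) promotes membrane fusion and binds the calcium protein sorcin. Anxa7, on chromosome 14 from 20455261 to 20480133 (minus strand), had 9.43, 9.25 and 8.46 FPKM in WT at 0 h and 19.36, 22.2 and 19.29 FPKM at 24 h. The β8ITG-cKO libraries had 6.23, 7.44 and 6.6 FPKM at 0 h and 16.54, 14.72 and 14.97 FPKM at 24 h. The β8ITG-cKO libraries lay below the WT libraries at both times, and the rises were 1.08 in WT (limma-trend adjusted p = 0.00146) and 1.08 in β8ITG-cKO (limma-trend adjusted p = 0.000161). Neither genotype difference passed the test, with -0.38 at 0 h (limma-trend adjusted p = 0.0885) and -0.37 at 24 h (limma-trend adjusted p = 0.14).

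Annexin A4, a protein of epithelial membranes, was the member whose rise was seen in WT without a rise past the threshold in β8ITG-cKO. Anxa4, on chromosome 6 from 86736840 to 86793593 (minus strand), had 10.7, 12.13 and 10.46 FPKM in WT at 0 h and 24.16, 23.71 and 22.29 FPKM at 24 h. The values in β8ITG-cKO were 15.15, 12.36 and 13.51 FPKM at 0 h and 15.22, 15.72 and 17.27 FPKM at 24 h. The 4 groups did not overlap, with WT at 24 h highest and WT at 0 h lowest. The mean rose 2.11-fold in WT, a difference of 1.01 (SE 0.13, limma-trend adjusted p = 0.00174), against 0.22 in β8ITG-cKO (95% interval -0.03 to 0.47, limma-trend adjusted p = 0.125). After rescaling to the same median the value in β8ITG-cKO was -0.06. At 24 h Anxa4 was lower in β8ITG-cKO by a difference of -0.52 (SE 0.12, limma-trend adjusted p = 0.046), a call lost when any library other than WT 24 h replicate 3 was left out, with adjusted p up to 0.19 without β8ITG-cKO 24 h replicate 2.

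Annexin A3 is abundant in neutrophils and is also made by epithelial and endothelial cells. Anxa3, on chromosome 5 from 96793385 to 96845968 (plus strand), had 6.3, 5.7 and 4.57 FPKM in WT at 0 h and 8.11, 6.53 and 8.25 FPKM at 24 h. In the knockout libraries it had 9.05, 9.01 and 7.86 FPKM at 0 h and 5.32, 4.93 and 5.13 FPKM at 24 h. Its values went in opposite directions in the genotypes, with no overlap between the times in either. The fall in β8ITG-cKO was -0.65 (SE 0.10, limma-trend adjusted p = 0.00155), and the WT difference of 0.41 had a limma-trend adjusted p of 0.102. The 8 neutrophil markers summed to 0.511 to 0.795 FPKM in WT at 0 h and 45.5 to 64.9 FPKM at 24 h, and to 0.542 to 1.41 FPKM and 12.1 to 35 FPKM in β8ITG-cKO, with the defining marker Ly6g at 0 in every library. Their part in the Anxa3 values was not tested.

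Annexin A11 has a long N-terminal tail, binds S100A6 and PDCD6 and tethers RNA granules to lysosomes. Anxa11, on chromosome 14 from 25842149 to 25886804 (plus strand), was the steadiest of the members, with group means of 6.4 ± 0.671 and 7.65 ± 0.393 FPKM in WT at 0 h and 24 h against 5.74 ± 0.443 and 5.55 ± 0.564 FPKM in the knockout (SD, n = 3 each). It passed the test in none of the 5 comparisons, with adjusted p from 0.129 to 0.785 from limma-trend. Annexin A9 lacks the usual calcium sites of the core. Anxa9 had the lowest means of the 10 genes at 24 h, with 0.89, 1.06 and 0.75 FPKM in WT and 1.53, 1.18 and 1.41 FPKM in β8ITG-cKO, and 0.93, 0.28 and 0.99 FPKM in WT and 0.34, 0.15 and 0.71 FPKM in β8ITG-cKO at 0 h. It rose in β8ITG-cKO by 0.78 (limma-trend adjusted p = 0.00848), a test it entered only through its level at 24 h. The tables give Anxa9 a locus on chromosome 3 from 95282503 to 95357514 that also covers Cers2, Setdb1 and Mindy1, and 3.43% of its exonic bases in GRCm38 are shared with Mindy1 on the other strand and 4.53% with 6330562C20Rik on the same strand. Over the bases shared with 6330562C20Rik, strand cannot tell its reads from those of Anxa9. Whether the counting used strand is not given in the sources used here, so the same may hold for Mindy1. Anxa3 shares 3.07% of its exonic bases with Gm42603 on the same strand. Anxa2, Anxa4 and Anxa11 share 2.63%, 1.615% and 2.73% of theirs with genes on the other strand. Of the annexin genes outside the list, Anxa10 had at most 0.02 FPKM and Anxa13 at most 0.07 FPKM in any library.

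Already at 0 h PCS, 3 of 9 annexin genes tested, Anxa1, Anxa2 and Anxa3, were higher in β8ITG-cKO than in WT LCs, where 4.18% of 14708 genes were higher and 2.75% lower. The differences were 0.75 for Anxa1 (1.68-fold in the means, limma-trend adjusted p = 0.0283), 0.79 for Anxa2 (1.74-fold, limma-trend adjusted p = 0.0184) and 0.57 for Anxa3 (1.56-fold, limma-trend adjusted p = 0.0464). At an unadjusted p of at most 0.05, 5 genes differed, 1 of them, Anxa7, as lower (share over all genes not computed). For Anxa1, Anxa2, Anxa3 and Anxa4 (0.28 for Anxa4, limma-trend adjusted p = 0.197), every β8ITG-cKO library lay above every WT library, as for 18% of all genes, and for Anxa7 every β8ITG-cKO library lay below, as for 12.8%. The criteria of the study were met by 0 of them, against 1.35% of all genes as higher and 1.18% as lower. With no filter on low values 0 of the 3 passed, and the same count of 0 came from leaving out WT 0 h replicate 1 or β8ITG-cKO 0 h replicate 3. Leaving out WT 0 h replicate 3 or β8ITG-cKO 0 h replicate 1 or 2 gave 1. Markers of other cells moved with this comparison. The 5 red blood cell genes were all lower in β8ITG-cKO, at a summed 6.52 to 15.8 FPKM against 68 to 152 FPKM. Of these, Alas2 entered the test only through its level in WT. The 7 corneal epithelium genes summed to 539 to 921 FPKM against 212 to 271 FPKM, with Aldh3a1 at 535.24 to 910.98 FPKM against 207.5 to 264.19 FPKM (limma-trend adjusted p = 0.00801). Of the 3 genes of this list tested, Aldh3a1 was past the threshold and Krt15 had a difference of 0.47 (limma-trend adjusted p = 0.363). Krt5 went the other way, at -0.72 (limma-trend adjusted p = 0.347), and entered the test only through its level in WT. Dsg3 was at 0 in every library of both groups, and Krt12, the defining corneal keratin, had 0 to 0.19 FPKM in β8ITG-cKO and 0.08 to 1.27 FPKM in WT. The part of these cells in the annexin differences was not tested.

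At 24 h PCS, 2 of the 10 annexin genes, Anxa4 and Anxa8, were lower in β8ITG-cKO than in WT LCs and 0 were higher, where 0.644% of 15366 genes were lower and 5.64% higher. At an unadjusted p of at most 0.05, 6 of the 10 were lower and 0 higher (share over all genes not computed). Anxa8 alone met the criteria of the study, as 0.286% of all genes did as lower and 3.37% as higher. The means of 9 of the 10 were lower in β8ITG-cKO, with a median difference of -0.39 against 0.03 over all genes, and in 5 of the 10 (Anxa3, Anxa4, Anxa7, Anxa8 and Anxa11) the β8ITG-cKO libraries were all under the lowest WT library, as for 9% of all genes. For Anxa9 they were all above the highest, as for 17.5%. Anxa3 was at -0.49 (95% interval -0.81 to -0.17, limma-trend adjusted p = 0.088) and Anxa11 at -0.40 (95% interval -0.71 to -0.10, limma-trend adjusted p = 0.129). The number of genes past the threshold was 0 without β8ITG-cKO 24 h replicate 3, 1 without any of WT 24 h replicates 1 and 2 and β8ITG-cKO 24 h replicates 1 and 2, and 5 in 1 fit over all 12 libraries. Calls over all genes were not counted in these alternative fits, so the 5 have no share to be set against. Over all genes rescaling moved the calls to 770 higher and 226 lower, from 867 and 99.

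Markers of other cells were also compared at 24 h. The 9 retinal genes were all higher in β8ITG-cKO, at a summed 840 to 981 FPKM against 72.3 to 134 FPKM in WT. The 8 neutrophil genes summed to 12.1 to 35 FPKM in β8ITG-cKO and 45.5 to 64.9 FPKM in WT, with 0 of 5 tested past the threshold in limma-trend and 4 at an unadjusted p of at most 0.05. Fewer cells of a type and less RNA per cell cannot be told apart in these bulk libraries. The 7 corneal epithelium genes summed to 141 to 192 FPKM in β8ITG-cKO and 156 to 448 FPKM in WT, with 0 of 5 tested past the threshold in limma-trend and 0 at an unadjusted p of at most 0.05. The part of retinal, blood and corneal cells in the annexin differences was not tested.

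Whether annexin genes changed by a different amount over time in the genotypes was tested as the interaction in 1 fit over the 12 libraries. For 4 of the 10 the change was smaller or more negative in β8ITG-cKO LCs and for 0 it was larger, where 2.56% of 15262 genes had a negative and 6.83% a positive interaction. At an unadjusted p of at most 0.05 there were 6, of which 5 negative and 1, Anxa9 at 0.62, positive (share over all genes not computed). Rescaling moved these calls over all genes to 650 negative and 1098 positive, from 390 and 1043. The genes were Anxa8 at -1.50 (SE 0.34, limma-trend adjusted p = 0.0199), Anxa2 at -1.26 (SE 0.24, limma-trend adjusted p = 0.00985), Anxa3 at -1.06 (SE 0.18, limma-trend adjusted p = 0.00783) and Anxa4 at -0.79 (SE 0.15, limma-trend adjusted p = 0.0106). The interaction equals the genotype difference at 24 h less that at 0 h, and the members differed in which of them it came from. For Anxa2 the parts were -0.48 at 24 h and 0.79 at 0 h, for Anxa3 -0.49 and 0.57, and for Anxa4 -0.52 and 0.28. Anxa8 was near 0 in both genotypes at 0 h, so its interaction lay in the 24 h libraries, and with a pseudocount of 0.1 in place of 1 its adjusted p was 0.343. It entered this fit only through its level at 24 h, and its genotype difference there is not independent evidence. Anxa7 had an interaction of 0.001 (95% interval -0.33 to 0.33) and Anxa6 of -0.26 (95% interval -0.77 to 0.25). Anxa1 had -0.95 (95% interval -1.81 to -0.09, limma-trend adjusted p = 0.161) and was past the threshold without WT 24 h replicate 3, at an adjusted p of 0.0338.

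**Figure D4:**
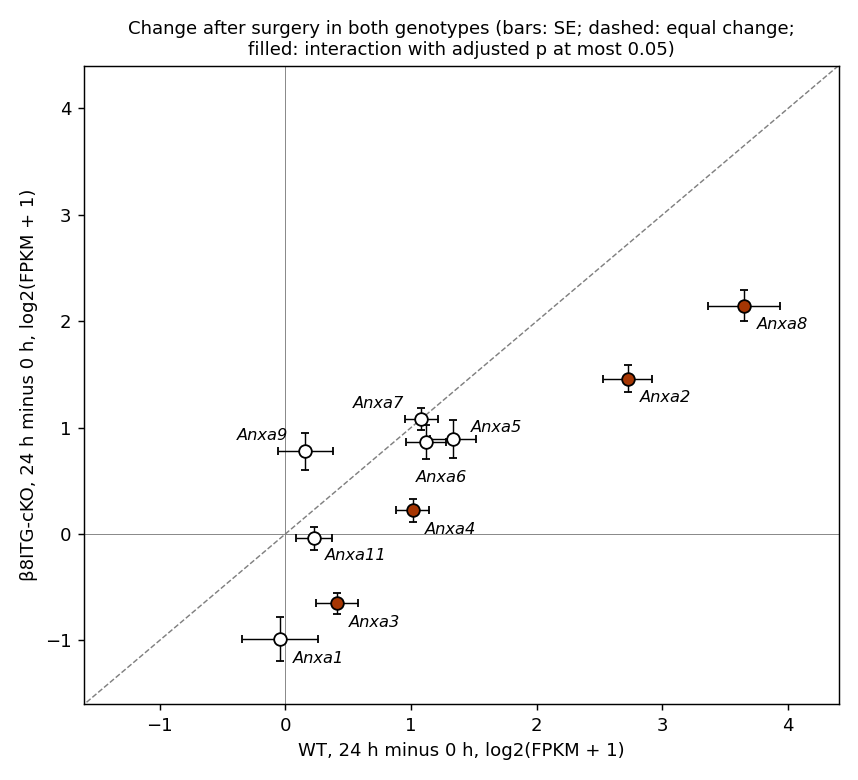
Change from 0 h to 24 h on the log2(FPKM + 1) scale in WT (x axis) and β8ITG-cKO (y axis) for the 10 annexin genes, with bars for the standard error, a dashed line for equal change and filled points where the interaction had an adjusted p of at most 0.05. Anxa2, Anxa3, Anxa4 and Anxa8 are filled and lie below the line, and Anxa7 lies on it.

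The genes that work with annexins were followed through a list of 15 binding partners. In WT LCs 9 of the 11 tested rose by 24 h and 0 fell, where 20.9% of all genes rose and 8.81% fell, and the median difference was 1.09 against 0.16 over all genes. In β8ITG-cKO 5 of the 11 rose and 2 fell, where 35.4% of all genes rose and 10.7% fell, and the median was 0.41 against 0.23. S100a10, the partner of annexin A2, had 137.81 to 157.43 FPKM in WT at 0 h and 246.43 to 349.23 FPKM at 24 h. Its differences were 0.997 in WT (limma-trend adjusted p = 0.00617) and 0.76 in β8ITG-cKO (limma-trend adjusted p = 0.000804), against 2.72 and 1.46 for Anxa2. S100a11, the partner of annexin A1, rose by 1.26 in WT and 0.41 in β8ITG-cKO. Cd44, the hyaluronan receptor, rose by 1.31 and 1.61, S100a4 rose by 1.26 in WT, and Sri, which encodes sorcin, fell by 0.48 in β8ITG-cKO. S100a6, which binds annexin A11 and annexin A2, rose from 175.84 to 211.14 FPKM at 0 h to 649.71 to 1103.95 FPKM at 24 h in WT, a difference of 2.2 (limma-trend adjusted p = 0.000836). In β8ITG-cKO S100a6 differed over time by 0.47 (limma-trend adjusted p = 0.0628). Its interaction was -1.74 (limma-trend adjusted p = 0.00769), and at 0 h it was already higher in β8ITG-cKO by 1.30 (limma-trend adjusted p = 0.00755). Ahnak, a giant scaffold that the annexin A2 complex binds, was lower in β8ITG-cKO at 24 h by a difference of -0.67 (limma-trend adjusted p = 0.0468), the only partner past the threshold there out of 12 tested. At 24 h 0.644% of all genes were lower. At 0 h 3 of 11 partners were higher in β8ITG-cKO and 2 lower, against 4.18% and 2.75% of all genes, among them Pla2g4a (1.03) and Cd44 (-0.75). The interaction was positive for 1 and negative for 4 of 11, against 6.83% and 2.56% of all genes, with Plgrkt, a plasminogen receptor, at -0.92 and Ahnak at -0.73.

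The list also held genes of plasminogen activation and of the formyl peptide receptors. Plat, which encodes tissue plasminogen activator, rose more in β8ITG-cKO than in WT, by 2.29 against 1.09, with an interaction of 1.2 (limma-trend adjusted p = 0.0085), and it was lower in β8ITG-cKO at 0 h by a difference of -1.37 (limma-trend adjusted p = 0.00383). At 24 h Plat had 29.99 to 40.23 FPKM in WT and 27.1 to 32.78 FPKM in β8ITG-cKO, so the genotypes overlapped by then. Plg, the gene of plasminogen itself, had at most 0.02 FPKM in any library. Pla2g4a, the cytosolic phospholipase A2, rose by 0.77 in WT and fell by 0.33 in β8ITG-cKO, with an interaction of -1.11 (limma-trend adjusted p = 0.00745). Fpr2, a receptor of annexin A1 named here after its values were seen, as was Plg, had 0.4 to 1.17 FPKM in WT at 24 h and 0.13 to 0.25 FPKM in β8ITG-cKO at 24 h. The genotype difference of -0.64 there was not past the threshold (limma-trend adjusted p = 0.126), and Fpr2 entered that test only through its level in WT.

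**Figure D5:**
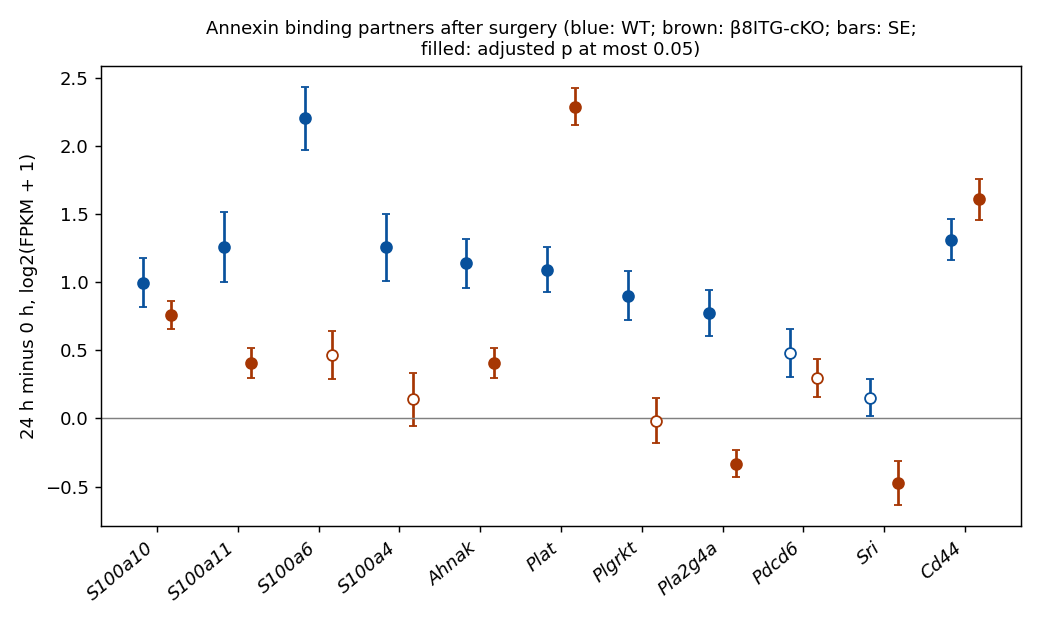
Change from 0 h to 24 h on the log2(FPKM + 1) scale in WT (blue) and β8ITG-cKO (brown) for the 11 annexin partner genes tested in both genotypes, with bars for the standard error and filled points where the adjusted p was at most 0.05. S100a6 lies at 2.2 in WT and Plat at 2.29 in β8ITG-cKO, and Pla2g4a lies above 0 in WT and below 0 in β8ITG-cKO.

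Genes of plasma membrane repair were followed through a list of 18, of which 17 are in the tables. Of 14 tested in each genotype, 9 rose and 1 fell in WT and 9 rose and 1 fell in β8ITG-cKO, where 20.9% of all genes rose and 8.81% fell in WT and 35.4% and 10.7% in β8ITG-cKO. The median differences were 1.19 in WT and 0.50 in β8ITG-cKO, against 0.16 and 0.23 over all genes. The ferlin Myof, a calcium sensor of membrane fusion, went from 5.82 to 9.24 FPKM at 0 h to 54.02 to 62.5 FPKM at 24 h in WT, a difference of 2.85 (limma-trend adjusted p = 0.000103), and rose by 2.67 in β8ITG-cKO. The caveolin genes Cav1 and Cav2 rose by 1.55 and 1.93 in WT and by 2.13 and 1.79 in β8ITG-cKO. Dysf, its relative in muscle repair, was at 0.27 FPKM or less in WT at 0 h and at 3.36 to 7.42 FPKM at 24 h, and it rose by 2.47 in WT and 2.02 in β8ITG-cKO. Dysf and Cav2 in both genotypes, and Cav1 in β8ITG-cKO, entered these tests only through their levels at 24 h. Smpd1, which encodes acid sphingomyelinase and was named after its values were seen, fell by 0.61 in WT and by 0.46 in β8ITG-cKO. At 0 h 1 of 11, Ehd2 at 0.62, was higher in β8ITG-cKO, against 4.18% of all genes, and between the genotypes at 24 h 0 of 15 passed the limma-trend test, with 4 at an unadjusted p of at most 0.05. The interaction was past the threshold for Ehd2 (-1.08) and Capns1 (-0.74), the small calpain subunit, out of 14 tested, against 2.56% of all genes with a negative interaction.

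The genes with the most similar course were found by the root mean square difference between log2(FPKM + 1) profiles, each centred on its own mean over the 12 libraries, among 9869 named genes of at least 2 FPKM on average. For Anxa2 they were Cd63 (0.20), Ahnak2 (0.21) and Myh9 (0.21), and for Anxa8 Crabp2 (0.26), Itga5 (0.30) and Ifi205 (0.30). For Anxa1 they were Npl (0.19), Galnt10 (0.20) and St8sia2 (0.22), for Anxa3 Lima1, Osgep and Wnt7b (0.14 each), and for Anxa4 Ctnna1 (0.11), Nol12 (0.12) and Prdx1 (0.12). Anxa5 was closest to Arhgdia, Nolc1 and Ssr4, Anxa6 to Plin3, Svil and Cactin, Anxa7 to Micall1, Zeb1 and Sdcbp, and Anxa9 to Jmjd6, Gucd1 and Crtc2, at 0.12 to 0.18. Among the annexins themselves Anxa5 and Anxa6 were the most alike pair, at 0.24, followed by Anxa6 and Anxa7 at 0.27. These values describe 12 libraries in 4 groups, so genes that share the steps between groups score as alike.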

How the data were processed

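RNA-seq of 12 libraries was used, with 3 biological replicates in each of 4 groups. Total RNA was made into stranded libraries with a pico-input kit. Per the submitters' processing notes, reads were trimmed with cutadapt (1.12), aligned with TopHat2 (2.1.0) and summarised with Cuffdiff (2.2.1) on mm10 (GRCm38). The deposited values are FPKM per gene and library, computed by the authors. No read counts were used, and the relative depth was read from the steps between low values. The 16 columns of group values, and the columns of fold changes, p-values and q-values of the authors' own comparisons, were not used.

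Values were tested as log2(FPKM + 1) with limma (3.58.1 in R 4.3.3, eBayes with trend), without covariates, over all genes averaging 0.5 FPKM or more in the compared libraries, with Benjamini-Hochberg adjustment and a threshold of 0.05. FPKM understates the change of low genes on this scale. The code was tested on simulated data. Alternatives were a pseudocount of 0.1, no filter, rescaling to the same median, a replicate block, 1 fit over all libraries, the criteria of the study and leaving out each library. The 10 genes were all named, with up to 4 genes past the threshold for each list of partners or repair genes and comparison, and the 3 genes most similar in course. Further partner and repair genes, or further comparisons of a named one, were added after their values were seen (S100a10, S100a11, Plat, Pla2g4a, Ahnak, Smpd1, Plg and Fpr2). The genes and lists were chosen with earlier results of these data known. Libraries with the same replicate number did not deviate together (18 pairs, correlations from -0.249 to 0.096), and 0 library pairs were identical.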

Additional observations from a re-analysis of the deposited data

Results flagged for a closer look

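The change from 0 h to 24 h differed between the genotypes for 4 annexin genes, by the interaction term over the 12 libraries (limma-trend, Benjamini-Hochberg adjustment). Among 15262 genes tested, 2.56% had a negative and 6.83% a positive interaction past the threshold. The change in β8ITG-cKO less that in WT was -1.26 for Anxa2 (adjusted p = 0.00985), -1.06 for Anxa3 (adjusted p = 0.00783), -0.79 for Anxa4 (adjusted p = 0.0106) and -1.50 for Anxa8 (adjusted p = 0.0199) on the log2 scale. For Anxa2, Anxa3 and Anxa4 the call held under all 16 alternatives, and for Anxa8 under 15. With a pseudocount of 0.1 the Anxa8 call was lost (limma-trend adjusted p = 0.343), so it depends on the constant added. Anxa8 was near 0 at 0 h in both genotypes and entered the fit only through its level at 24 h. Its interaction therefore repeats its genotype difference at 24 h, which is not independent evidence.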

How the results depend on the processing

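Of 587 recomputed values of 49 results, each of 1 gene in 1 comparison, 536 kept their direction and side of the threshold. The annexin genes past the threshold between 0 h and 24 h in β8ITG-cKO numbered 3 higher and 0 lower with the criteria of the study. At 0 h the genes higher in β8ITG-cKO, 3 in the report, numbered 0 with no filter, 0 with the criteria of the study, 1 with the replicate block and 0 to 2 without 1 library. At 24 h the genes lower in β8ITG-cKO, 2 in the report, numbered 1 with the replicate block, 5 in 1 fit over 12 libraries, 1 with the criteria of the study and 0 to 2 without 1 library. For the fit over 12 libraries the calls over all genes were not counted. The replicate block changed 3 gene calls, those of Anxa1 and Anxa3 at 0 h and Anxa4 at 24 h, and over all genes the calls at 0 h numbered 269, against 1020 without it. Only 3 of the 12 libraries were closest to their own replicate number. Direction turned after rescaling for Anxa11 in WT over time (-0.005), Anxa4 in β8ITG-cKO over time (-0.061) and the Anxa7 interaction (-0.028). Without 1 library it turned for Anxa1 in WT over time (range -0.342 to 0.262), Anxa9 in WT over time (-0.046 to 0.273), Anxa11 in β8ITG-cKO over time (-0.109 to 0.011), Anxa1 at 24 h between genotypes (-0.503 to 0.101), Anxa6 there (-0.211 to 0.016) and the Anxa7 interaction (range -0.048 to 0.065). These genes were past the threshold in neither setting, and the causes were not tested. Depth per gene is unknown in FPKM, so low values such as those of Anxa9 have no counting interval.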

Other observations

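Anxa1 and Anxa3 had the same order of group means, with β8ITG-cKO at 0 h highest and β8ITG-cKO at 24 h lowest. For Anxa1 the library ranges of all neighbouring groups in this order overlapped. For Anxa3 only those of WT at 24 h and WT at 0 h did not. In the libraries the lens fiber markers fell between 0 h and 24 h for 7 of 7 genes in WT and 7 of 7 in β8ITG-cKO. Of 7 lens epithelium markers, 4 fell and 1 rose in WT, and 6 fell and 0 rose in β8ITG-cKO. The marker that rose in WT was Cdh1, by 0.44 (limma-trend adjusted p = 0.0474), and it fell by 1.15 in β8ITG-cKO. Of 7 macrophage genes tested, 2 rose in WT and 4 in β8ITG-cKO, and between the genotypes 0 passed in limma-trend at either time, with 2 at an unadjusted p of at most 0.05 at each. Among the risers, Cd68 in WT and Cd14 in β8ITG-cKO entered the tests over time only through their levels at 24 h. Vascular endothelium markers summed to at most 4.19 FPKM in any library. At 24 h, iris and ciliary pigment markers were lower in β8ITG-cKO for 1 of 4 genes tested, and 0 of 1 corneal stroma genes tested differed.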
